A study of Xenopus laevis with 12 samples.

Results

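Explants of ectoderm that had received an antisense oligonucleotide against lhx1, and no inducing factor, were compared with uninjected explants of the same kind. The comparison used 6 of the 12 arrays of the study, 3 of lhx1-AS caps and 3 of C caps, chosen by their labels and paired by experiment (I, II and III). The lhx1-AS group was made by injecting both blastomeres of embryos at the 2-cell stage with a total of 800 pg of a DEED-modified antisense oligonucleotide (lhx1-AS) against Xenopus laevis lhx1. The C group came from uninjected embryos. In both groups the animal cap, the ectoderm around the animal pole, was cut out at stage 9. Caps were cultured in Danilchik's solution for 24 h at 14 °C, until sibling embryos had reached stage 12.5 per the labels. The paper gives a somewhat later stage of harvest. Each array read RNA from a pool of about 12 caps. No caps injected with a control oligonucleotide were among the 12 arrays, so an effect through lhx1 and any other effect of the injection cannot be told apart. The other 6 arrays held caps that received 10 ng/ml activin and 1e-04 M retinoic acid (AcRA), 3 of them injected (lhx1-AS/AcRA) and 3 uninjected (AcRA). They entered the fit with the others, so that the spread and the experiment terms were estimated over all 12 arrays, and gave the effect of the oligonucleotide in induced caps. A fit of the 6 untreated arrays alone was run as an alternative.

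Animal caps left without inducing factors are known to become atypical epidermis, with keratin-rich surface cells, multiciliated cells, ionocytes and small secretory cells, and to make mesoderm, endoderm or neural tissue only when signals such as activin, retinoic acid or BMP antagonists reach them. Lhx1 is a LIM-domain homeobox transcription factor that works with the adaptor Ldb1 and is known for its roles in the organizer and in the early kidney field. DEED-modified oligonucleotides pair with a target mRNA and lead to its cleavage by RNase H.

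Signals were the linear, scaled values of an Affymetrix array of this species, read over all probe sets other than its controls. The scaling put the trimmed mean of every array near 500.1 units, while the median signal was 106 to 123 on lhx1-AS arrays and 124 to 149 on C arrays. Pairs of arrays within a group correlated with r between 0.869 and 0.900 in lhx1-AS caps and between 0.902 and 0.913 in C caps. One library stood apart. On the lhx1-AS array of experiment I the signal of the 3' probe set was 5.40 times that of the 5' probe set for beta-actin and 13.4 times for Gapdh, whereas on the other 11 arrays these ratios lay between 0.456 and 0.908 and between 2.88 and 4.36. Counts of probe sets, and those of many gene lists, are therefore also given without this array, and its part in them was not tested beyond that.

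The targeted gene was read by 1 probe set, lhx1.L, near the bottom of the scale in untreated caps. Its signals were 1.55, 42.6 and 3.2 in lhx1-AS caps (experiments I, II and III), against 19.8, 2.19 and 2.60 in C caps. The groups overlapped, with the highest value of each group in a different experiment. The log2 difference, lhx1-AS minus C throughout, was 0.30 ± 1.06 (SE) with an adjusted p of 0.885 (limma), and its sign turned when single arrays were left out. A lower lhx1 mRNA level in lhx1-AS caps was thus not detectable at these signals. In induced caps the gene was well above the bottom of the scale, with 1144, 990.9 and 1614 units in lhx1-AS/AcRA caps, against 315.7, 823.2 and 779 in AcRA caps. Every lhx1-AS/AcRA array lay above every AcRA array, and the difference of 1.06 ± 1.06 was not called (limma, adjusted p = 0.547). This SE pools the spread of all groups, including the scattered untreated signals near the bottom of the scale. It is thus not the spread among the induced arrays alone. The targeted gene was thus not seen lower in the arrays labelled lhx1-AS in either setting. The labels state the injection, and these signals did not bear out a lower lhx1 mRNA level at harvest. Groups are named by the labels throughout. From other assays, the paper reports that injected AcRA caps lacked pax8 induction. It also reports that zebrafish lhx1 mRNA markedly rescued the kidney field of injected embryos.

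Genes of the LIM homeobox class and their partners were measured for 18 of 28 listed. The adaptor ldb1 had 9615, 21980 and 18160 units in lhx1-AS caps, against 12490, 17740 and 14990 in C caps. The groups overlapped and the difference of 0.07 ± 0.17 was not called (limma, adjusted p = 0.833), and it was -0.21 after quantile normalization. Called higher were 3 of the 18 (16.7%) and lower 0, where the shares over all 6505 named genes, each read by its brightest probe set, were 9.22% higher and 10.6% lower. The 3 were rlim, an E3 ubiquitin ligase that removes LIM cofactors, lhx5, a close relative of lhx1, and the corepressor tle2. The signal of rlim was 3695, 3403 and 2945 in lhx1-AS caps and 2098, 1952 and 1310 in C caps, a difference of 0.93 ± 0.20 (limma, adjusted p = 0.00674). That of lhx5 was 95.0, 205 and 308 in lhx1-AS caps, against 40.8, 60.9 and 80.5 in C caps. For both genes every lhx1-AS array lay above every C array, and rlim kept its call without each of the 6 arrays in turn, whereas lhx5 and tle2 did not (lhx5 was lost without array III of lhx1-AS, II of C or III of C, with adjusted p of up to 0.0644, and tle2 without any of 5 arrays, with adjusted p of up to 0.117).

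Across all probe sets, 1149 were called higher and 1609 lower in lhx1-AS than in C caps (limma with experiment as a block, adjusted p under 0.05), which is 7.41% and 10.4% of those tested and 17.8% together. Of these, 1142 and 1599 differed the same way in 3 of 3 experiments. The groups did not overlap for 900 of the higher and 1343 of the lower ones. Over all 15503 probe sets tested, called or not, the groups did not overlap for 1825 upward and 2214 downward. Separate groups, given for many genes here, were thus frequent over the whole array. Differences downward were the larger: 467 probe sets were lower by at least 4-fold and 148 were higher by at least 4-fold, and with 64 units added to every signal, which damps differences between dim values, the counts were 130 lower and 21 higher. Among probe sets with a mean signal of 466 units or more, 18.1% were called higher and 12.8% lower, whereas from 121 to 466 units 7.48% were higher and 18.2% lower. Under 30 units 1.19% were higher and 1.47% lower (46 and 57 probe sets). Gene lists are set against all named genes and not against genes of like signal. How far the signal of its members sets the share of a list was not tested.

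The balance between higher and lower calls depended on the scaling. When each array was scaled to the same median in place of the same trimmed mean, the median log2 difference of all probe sets was 0.24 rather than -0.0052 and the counts became 2104 higher and 1139 lower, so that 64.9% rather than 41.7% of calls were higher. Quantile normalization gave 1384 higher and 1297 lower, or 51.6% higher. Changes below are stated on the deposited scale. Without the lhx1-AS array of experiment I the counts were 1045 higher and 1521 lower, of which 815 and 1281 were among the calls above. Without array III of C they were 592 and 821. A stricter set of 432 higher and 679 lower probe sets kept its calls without each of the 6 arrays in turn. These were 37.6% of the higher and 42.2% of the lower calls. Among all named genes, 236 (3.63%) were higher and kept their call, and 305 (4.69%) were lower and kept it. Without the experiment as a block, 391 were higher and 693 lower, and in the fit of the 6 untreated arrays alone 746 and 1371.

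**Figure D1:**
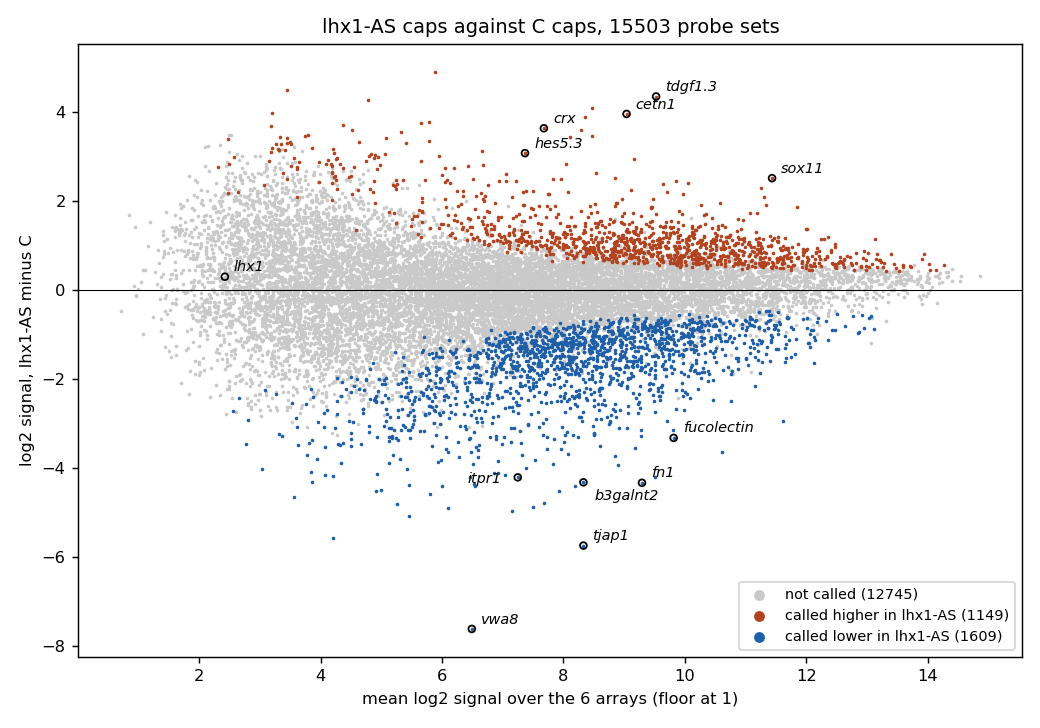
Log2 difference of lhx1-AS minus C caps (y axis) against the mean log2 signal over the 6 arrays (x axis), 1 point for each probe set. Coloured points are the 1149 called higher and the 1609 called lower, and open rings mark lhx1 and genes described in the text, which run from 4.35 for tdgf1.3 at the top to -7.61 for vwa8 at the bottom.

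The 15 named genes with the largest rises, among those of at least 200 units in lhx1-AS caps, were led by tdgf1.3, a membrane-anchored EGF-CFC co-receptor of Nodal ligands. It had 2484, 3628 and 4095 units in lhx1-AS caps, against 142, 318 and 96.5 in C caps. Cetn1, a centrin of the centriole, had 2068, 1532 and 2820 units in lhx1-AS caps and 146, 117 and 139.4 in C caps. The lowest lhx1-AS array exceeded the highest C array severalfold for both genes. The differences were 4.35 ± 0.39 for tdgf1.3 (limma, adjusted p = 3.47e-05) and 3.96 ± 0.22 for cetn1 (limma, adjusted p = 1.62e-06), and both probe sets of cetn1 rose.

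Transcription factors were also among the 15. Crx, an Otx-type homeobox gene of the anterior nervous system and eye, stood at 471, 666 and 1201 units in lhx1-AS caps, against 50.9, 69.3 and 55.5 in C caps, a difference of 3.64 ± 0.37, and 2 of its 3 probe sets were called. Sox11, a SoxC gene of early neural tissue, had 4615, 7717 and 8170 units in lhx1-AS caps, against 1307, 1937 and 613 in C caps, a difference of 2.52 ± 0.31. Both rose in every experiment with no overlap between groups. Hes5.3, a bHLH repressor of the Notch target family (3.08 ± 0.42), dlx6, a distal-less homeobox gene (2.24 ± 0.33), and ventx2.1, a homeobox repressor of the BMP response (2.38 ± 0.30), rose likewise, with adjusted p from 0.00034 for ventx2.1 to 0.000827 for dlx6 (limma). For ventx2.1 the rise was read by the probe set of ventx2.1.L. The brighter probe set of its homeolog ventx2.1.S differed by 0.64 ± 0.26 and was not called (limma, adjusted p = 0.11).

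The others included enzymes and RNA-related proteins. Rdh10, which oxidizes retinol to retinaldehyde in retinoic acid synthesis, had 2504, 2513 and 2315 units in lhx1-AS caps, against 430, 939 and 242 in C caps (2.41 ± 0.30 on 1 of its 2 probe sets, the other not being called). The injected arrays lay close together and all above the more widely spread C arrays. Polr1f, a subunit of RNA polymerase I (2.45 ± 0.18), paip2b, an inhibitor of poly(A)-binding protein (2.09 ± 0.22, called on all 3 probe sets), riok3, a RIO-family kinase (2.52 ± 0.29, on both), alkbh4, an AlkB-type dioxygenase (2.199 ± 0.22, on 1 of 2), and hs3st1, a heparan sulfate sulfotransferase (2.83 ± 0.57), rose too. So did XB5904899.L, a gene with no descriptive name (2.50 ± 0.50, on both probe sets), and marcksl1, an actin-associated membrane protein (2.15 ± 0.32). For marcksl1 the probe set of the S homeolog rose to 1965, 2056 and 2359 units, against 742, 665 and 221 in C caps, while the dim probe set of the L homeolog fell, with 86.3, 51.4 and 41.8 units in lhx1-AS caps and 105, 149 and 244 in C caps (limma, adjusted p = 0.0143, and 0.092 without array III of C). The 15 were chosen by their call, by a rise in 3 of 3 experiments and by their size with 64 added, so that the separation of their groups is largely given by the choice.

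The 15 named genes with the largest falls with 64 added, of at least 200 units in C caps, were led by vwa8 on the scale with a floor of 1 unit. Vwa8 is a mitochondrial protein with ATPase and von Willebrand factor type A domains. Its signal was 26.4, 3.51 and 2.87 in lhx1-AS caps, against 1146, 1442 and 1199 in C caps. This is a difference of -7.61 ± 0.67 with a floor of 1 unit, and of -4.15 with 64 added (limma, adjusted p = 3.24e-05 and 3.81e-08), so the size of the fall depends on how the lowest signals are read. Tjap1, a tight junction-associated protein, had 157, 8.81 and 61.6 units in lhx1-AS caps, against 2483, 2218 and 2348 in C caps, and its second probe set fell as well (-4.96 ± 0.68). In both genes the C arrays were tightly grouped and the lhx1-AS arrays lay far beneath them.

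B3galnt2, a glycosyltransferase that builds the matrix-binding glycan of alpha-dystroglycan, had 53.7, 91.7 and 76.0 units in lhx1-AS caps and 1405, 1245 and 1685 in C caps, a difference of -4.31 ± 0.25 (limma, adjusted p = 1.62e-06). Also among the 15 were itpr1, the IP3 receptor channel (-4.20 ± 0.27), atp2a3, a calcium pump of the endoplasmic reticulum (-3.29 ± 0.33), slc26a6, an anion exchanger (-3.98 ± 0.37), slc18a1, a vesicular monoamine transporter (-2.93 ± 0.39), and slc10a7, a solute carrier (-3.56 ± 0.30). Itpr1 had 25.4, 33.1 and 52.9 units in lhx1-AS caps, against 556, 689 and 724 in C caps. Sytl1, a vesicle tethering protein, fell by 4.87 ± 0.75 on 1 of its 3 probe sets, another being called lower as well and the third, at -0.86, not called (limma, adjusted p = 0.522), and ptprf, a receptor tyrosine phosphatase of the LAR type, by 3.56 ± 0.37 on the log2 scale.

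Fucolectin, a fucose-binding lectin, had 443, 215 and 243 units in lhx1-AS caps, against 2963, 2102 and 3685 in C caps (-3.32 ± 0.33). Elovl2, an elongase of polyunsaturated fatty acids, had 290, 103 and 266.3 units in lhx1-AS caps and 1728, 1300 and 3185 in C caps (-3.27 ± 0.46). Neither pair of groups overlapped. Tpp1, a lysosomal peptidase, fell on all 3 of its probe sets, with a largest difference of -3.81 ± 0.62, and XB5953580.L, which has no descriptive name, fell by 3.91 ± 0.70 although its C signals ranged between 190 and 3578. These 15 were chosen in the same way as the rises.

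**Figure D2:**
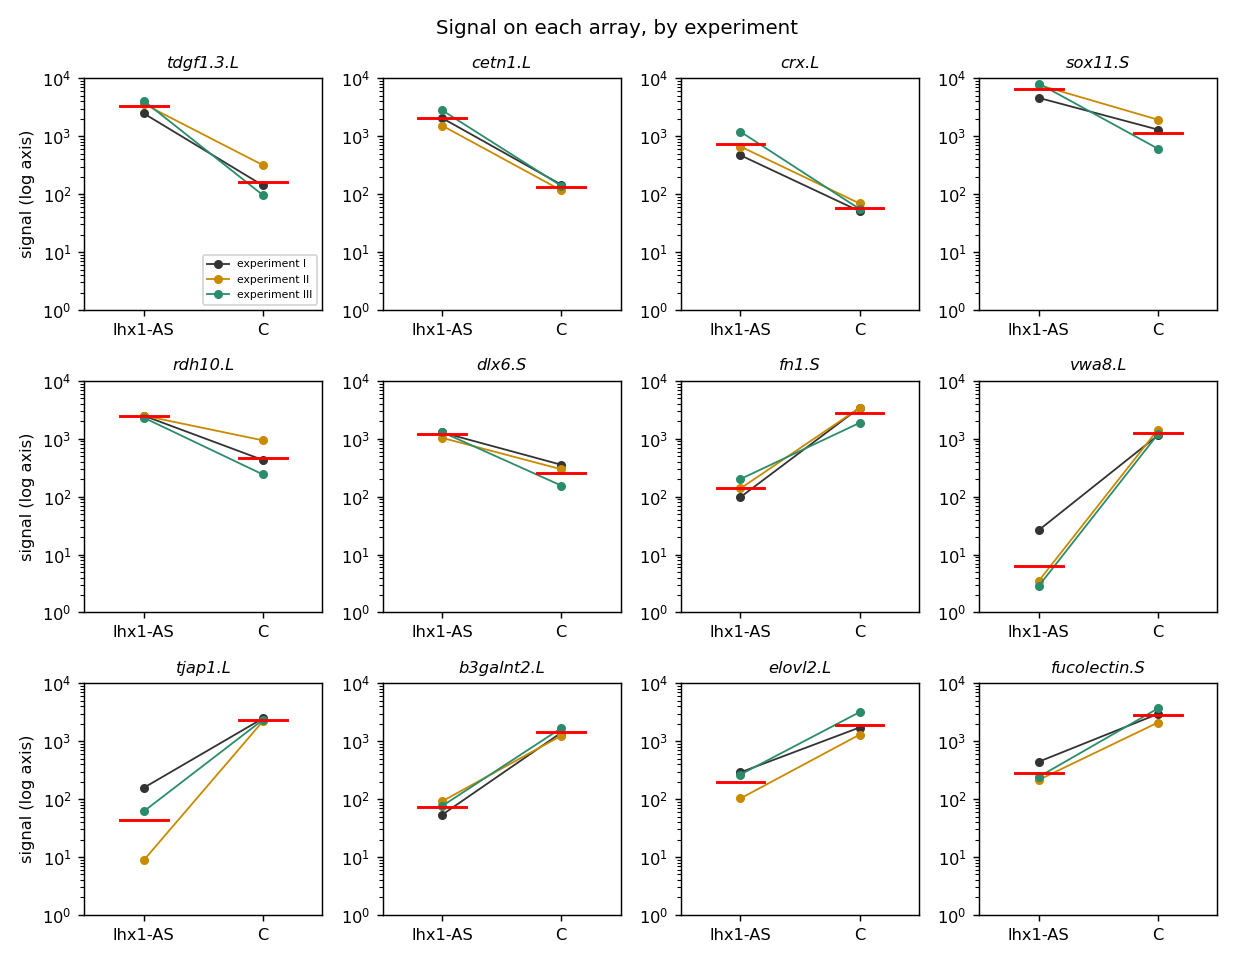
Signal on each of the 6 arrays (log axis) for 12 of the 30 genes with the largest changes, lhx1-AS at left and C at right, with a line joining the arrays of an experiment and a red bar for the geometric mean of 3 arrays. In every panel the 3 lhx1-AS points lie on one side of the 3 C points, above them for tdgf1.3, cetn1, crx, sox11, rdh10 and dlx6 and beneath them for the rest.

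Cell adhesion and matrix genes included a large fall. Fibronectin (fn1), the main matrix protein on which gastrulating mesoderm migrates, was represented by 4 probe sets, all called lower. The brightest had 433, 418 and 485 units in lhx1-AS caps, against 5816, 5727 and 4923 in C caps, a difference of -3.62 ± 0.21 (limma, adjusted p = 1.62e-06). The other probe sets differed by between -3.56 and -4.39. The groups did not overlap on any of the 4. Of 62 listed adhesion and matrix genes measured, 9 were lower and 3 higher, with a median of -0.15 against 0.022 over all named genes, so that 14.5% were lower and 4.84% higher, against 10.6% and 9.22% of all genes. Of the lower ones, fn1, the N-cadherin gene cdh2, the p120 catenin gene ctnnd1, the syndecan sdc2, the basement membrane gene nid2 and the ephrin efna1 kept their calls without each array, whereas the collagen-binding protein gene sparc, the collagen gene col18a1 and the alpha-catenin gene ctnna1 did not.

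Among these, ctnnd1 had 411, 269 and 267 units in lhx1-AS caps, against 1082, 761 and 857 in C caps (-1.53 ± 0.19), and sdc2 had 190, 320 and 195 in lhx1-AS caps, against 844, 905 and 539 in C caps (-1.70 ± 0.26). Cdh2 was dim, with 34.4, 6.64 and 1.90 units in lhx1-AS caps and 300, 434 and 127 in C caps. The groups did not overlap for any of the 3 genes. Sparc.L, with 92.3, 45.7 and 185 units in lhx1-AS caps against 475, 188 and 636 in C caps, lost its call without array II of lhx1-AS, I of C or III of C (adjusted p of up to 0.0935, limma), while sparc.S kept its call without each array. Higher were sdc4, another syndecan (1.56 ± 0.22), cdh3, a maternally supplied cadherin of the early Xenopus embryo (0.90 ± 0.17), and the PDGF receptor pdgfra, which was dim.

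All 8 defining markers of epidermis were measured (krt12.4, krt12.5, krt70, itln1, tfap2a, grhl1, dlx3 and dlx5) and none of the 8 was called on the deposited scale, while tfap2a was called higher at a common median (1.06, limma, adjusted p = 0.0198) and itln1 lower with 64 added; their summed signal was 69940 to 74380 in lhx1-AS caps and 73130 to 82300 in C caps, and their differences lay between -1.18 and 0.82. Krt12.4 had 15070, 15920 and 15280 units in lhx1-AS caps, against 16920, 16160 and 17520 in C caps, a difference of -0.13 ± 0.31 whose sign turned at a common median (0.11). Krt70 had 24080, 25170 and 26690 units in lhx1-AS caps, against 22460, 19240 and 24410 in C caps, a difference of 0.21 ± 0.57 that was -0.13 after quantile normalization. The krt12.4 signals did not overlap and those of krt70 did, and neither gene was called (limma, adjusted p = 0.83 and 0.856). The SE values of these markers pool the spread of all groups, including the scattered lhx1-AS/AcRA arrays. There krt70 had 7863, 11620 and 1025 units and krt12.4 had 2760, 4985 and 1302. The SE values are thus not the spread among the untreated arrays alone. Neither krt12.4 nor krt70 was called in any of the 18 alternatives, among them a fit of the untreated arrays alone. Itln1, a lectin secreted by goblet cells, had 5366, 4554 and 7692 units in lhx1-AS caps, against 9013, 12910 and 18610 in C caps; the groups did not overlap, but the difference of -1.18 ± 0.39 was not called (limma, adjusted p = 0.0548), though it was with 64 added (-1.17, limma, adjusted p = 0.031).

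Of 31 listed epidermal genes measured, 1 was higher (dlx6) and 4 were lower (dsp, krt19, msx2 and dlx2), with a median of 0.083. These are 3.23% and 12.9%, near the 10.6% of all genes for the lower ones. Desmoplakin (dsp), which anchors keratin to desmosomes, had 1277, 4599 and 4912 units in lhx1-AS caps, against 3993, 7304 and 10180 in C caps. These ranges overlapped, although each experiment showed a fall, and the mean difference was -1.12 ± 0.25 (limma, adjusted p = 0.00885, and 0.0573 without array III of C). The probe set of the S homeolog of dsp differed by -1.498 ± 0.23 and kept its call without each array. The simple-epithelial keratin krt19 fell by 1.62 ± 0.43 and 1.58 ± 0.32 on its 2 probe sets, the first of which lost its call without array II of lhx1-AS, II of C or III of C (adjusted p of up to 0.102, limma).

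In the lists of the other epidermal cell types all calls on the deposited scale were lower. Of 23 genes of multiciliated cells and cilia, 4 were lower (17.4%, against 10.6% of all genes) and 0 higher, with a median of -0.55: ak7, an adenylate kinase of cilia, dnai1, an axonemal dynein chain, spag6, a protein of the central pair, and tekt2, a tektin. Ak7 had 229, 84.3 and 157 units in lhx1-AS caps, against 983, 469 and 2711 in C caps (-2.90 ± 0.57, limma, adjusted p = 0.00437), and dnai1 had 384, 277 and 156 in lhx1-AS caps, against 763, 919 and 888 in C caps (-1.74 ± 0.41). Neither gene's groups overlapped. Without the lhx1-AS array of experiment I, 6 genes of this list were lower. At a common median 3 were lower and 0 higher, and without the experiment as a block also 3 and 0. Ak7 alone kept its call without each array in turn, while dnai1 lost its call without array II or III of lhx1-AS or III of C (adjusted p of up to 0.0703, limma). The 0 higher calls compare with 9.22% of all genes.

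Of 18 genes of ionocytes and secretory cells, 3 were lower (16.7%, against 10.6% of all genes) and 0 higher, with a median of -0.64: atp1b1, a subunit of the sodium pump, and atp6v1c1 and atp6v1a, subunits of the proton pump. Atp6v1c1 had 1227, 1080 and 1031 units in lhx1-AS caps, against 1861, 1596 and 2180 in C caps, and atp1b1 had 661, 437 and 563 in lhx1-AS caps, against 1048, 878 and 993 in C caps (-0.83 ± 0.20). The groups were separate in both, but the call of atp6v1c1 was lost without array II or III of lhx1-AS or I or III of C (adjusted p of up to 0.139, limma) and that of atp1b1 without array II or III of C (up to 0.0662). Atp6v1a kept its call in 1 of the 6 fits that left out 1 array. Of the defining ionocyte markers foxi1, ca12 and atp6v1a, only atp6v1a was called, and the 3 differences ran from -1.32 to 0.95. Their summed signal was 837 to 1197 in lhx1-AS caps and 1674 to 2671 in C caps. That of the small secretory cell markers foxa1 and otogl2 was 8900 to 10770 in lhx1-AS caps and 6869 to 7351 in C caps, with 0 called. The calls of this list depended on the scaling. At a common median 1 was higher and 1 lower, with 64 added 1 and 7, and without the experiment as a block 0 and 0. Otogl2, a mucin-like product of small secretory cells, had 10730, 9228 and 8640 units in lhx1-AS caps, against 7314, 6764 and 6709 in C caps; it was not called (0.46 ± 0.18, limma, adjusted p = 0.0932) except at a common median (0.70, limma, adjusted p = 0.0204).

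Neural genes were the developmental list with the most calls. Of 40 genes of neural tissue, neural border and crest, 10 were higher (25.0%, against 9.22% of all genes) and 1 lower, with a median of 0.80. Without the lhx1-AS array of experiment I, 11 were higher and 1 lower, at a common median 16 and 1, and without the experiment as a block 4 and 1. The rises of 5 genes were kept without each array: crx, sox11, sox15, eya1 and gmnn. Sox15 had 1281, 1460 and 1506 units in lhx1-AS caps, against 523, 864 and 438 in C caps (1.28 ± 0.25). Geminin (gmnn), an inhibitor of replication licensing that also promotes neural fate, had 544, 1766 and 1330 units in lhx1-AS caps, against 384, 886 and 495 in C caps (0.98 ± 0.21). The geminin signals overlapped between groups, but geminin was higher in 3 of 3 experiments.

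The summed signal of the defining neural markers sox2, sox3, zic1 and ncam1 was 734 to 1137 in lhx1-AS caps and 280 to 635 in C caps, without overlap, with sox2 and zic1 called higher and 0 lower. Sox2 kept its call in 4 of the 6 fits that left out 1 array, and its other probe set was not called. Ncam1 went the other way, at 10.1, 34.6 and 27.65 units in lhx1-AS caps, against 72.1, 62.9 and 68.9 in C caps. Its groups did not overlap and it was not called (-1.67 ± 0.55, limma, adjusted p = 0.0535). Of these markers sox3 was the brightest, with 516.9, 588.9 and 624.5 units in lhx1-AS caps, against 345.4, 474.1 and 107.7 in C caps. The sox3 groups did not overlap and it was not called (1.14, limma, adjusted p = 0.0718). It was called in 3 of the 18 alternatives, among them that of a common median (limma, adjusted p = 0.0277). Zic1 had 80.2, 188 and 363 units in lhx1-AS caps, against 28.4, 53.01 and 81.7 in C caps on its brighter probe set (1.82 ± 0.49), and lost its call without array II or III of lhx1-AS or I or II of C (adjusted p of up to 0.124, limma). Otx1, an anterior homeobox gene, had 498, 1168 and 1225 units in lhx1-AS caps and 112, 653 and 187 in C caps (1.90 ± 0.52), and its call was lost without any one of 5 arrays (adjusted p of up to 0.142, and 0.0718 without the lhx1-AS array of experiment I, limma). Pax3, a homeobox gene of the neural border, went the other way: 3652, 1368 and 1219 units in lhx1-AS caps, against 6930, 3981 and 3499 in C caps, a fall of 1.33 ± 0.21 on the log2 scale (limma, adjusted p = 0.0013) that was kept without each array, although the highest lhx1-AS signal exceeded the lowest C signal.

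Genes listed for the onset of zygotic transcription, which are not markers of a single tissue, rose in part. Of 23 measured, 6 were higher (26.1%, against 9.22% of all genes) and 0 lower, with a median of 0.61. The number higher was 4 without the lhx1-AS array of experiment I and 1 without the experiment as a block. Sox11 and foxi4.2, a forkhead gene of early ectoderm, kept their calls without each array. Foxi4.2 had 1033, 3122 and 4202 units in lhx1-AS caps, against 478, 1063 and 489 in C caps (1.92 ± 0.40), which overlapped slightly. The Oct4-related gene pou5f3.2 had 2614, 2822 and 1970 units in lhx1-AS caps, against 952, 1489 and 351 in C caps (1.62 ± 0.41). Its groups were separate, but the call was lost without array I or III of lhx1-AS or III of C (adjusted p of up to 0.104, limma). Among 41 maternal and germ plasm RNAs, 7 were higher (17.1%) and 3 lower (7.32%), and 1 of them, the transcription elongation kinase gene cdk9, kept its call without each array (1.11 ± 0.22).

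The defining markers of mesoderm and endoderm were dim in both groups. The summed signal of 6 mesoderm markers (tbxt, wnt8a, myf5, myod1, tbx6 and cdx4) was 104 to 177 in lhx1-AS caps and 69.0 to 217 in C caps, and that of 6 endoderm markers was 131.5 to 149.9 in lhx1-AS caps and 66.0 to 159.5 in C caps; 0 of these 12 were called. Of 41 early mesoderm genes 5 were higher (12.2%, against 9.22% of all genes) and 0 lower (against 10.6%). The 5 all had means under 200 units in both groups (pdgfra, eomes, ventx2.2, vegt and foxc2). Ventx2.1, also on this list, was read by its uncalled ventx2.1.S probe set. Its ventx2.1.L probe set was called higher, with means of 1960 units in lhx1-AS caps and 391.6 in C caps. Of 25 organizer genes 3 were higher (12%, tdgf1.3, lhx5 and not) and 1 lower (4%). The lower one was the secreted Wnt antagonist sfrp2, at 584, 1007 and 948 units in lhx1-AS caps against 1646, 1534 and 2384 in C caps (-1.14 ± 0.27, and a limma adjusted p of 0.0761 without array III of C). Otx2, at 777, 660 and 990 units in lhx1-AS caps against 456, 174 and 233 in C caps, did not overlap between groups and was not called (limma, adjusted p = 0.0585), though it was with 64 added (1.38, limma, adjusted p = 0.0112) and at a common median (limma, adjusted p = 0.0267). Of 25 early kidney regulators 2 were higher (8%, eya1 and foxc2, both dim) and 0 lower. These counts were 2 and 2 without the lhx1-AS array of experiment I, 7 and 0 at a common median and 5 and 0 after quantile normalization. In 21 endoderm genes 1 was lower (4.76%), gata6.L, while the dim probe set of gata6.S was called higher.

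Muscle, blood and Hox lists held few calls, with shares under those of all genes (9.22% higher and 10.6% lower). Of 28 muscle genes 2 were lower (7.14%) and 1 higher (3.57%). The calcium pump gene atp2a1 was the lower one that kept its call without each array, at 853, 268 and 607 units in lhx1-AS caps against 1584, 984 and 1358 in C caps (-1.31 ± 0.26). Of 25 genes of blood, heart and vessels 2 were lower (8%) and 1 higher (4%). Spib, an ETS factor of myeloid cells, had 246, 144 and 189 units in lhx1-AS caps, against 666, 834 and 532 in C caps (-1.82 ± 0.25, limma, adjusted p = 0.000568), with no overlap. Of 27 Hox and related genes 2 were higher (7.41%) and 1 lower (3.7%). Hoxa11 and hoxc6 rose at low signals, and meis3, a Hox cofactor, fell to 419, 204 and 345 units in lhx1-AS caps, against 1001, 850 and 727 in C caps (-1.46 ± 0.25).

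Calls among cell cycle genes were mainly higher, with several in replication licensing and DNA synthesis. Of 67 measured, 15 were higher (22.4%, against 9.22% of all genes) and 3 lower, with a median of 0.42. Without the lhx1-AS array of experiment I, 15 were higher and 2 lower, at a common median 23 and 2, and without the experiment as a block 9 and 0. Of the rises, 10 were kept without each of the 6 arrays. The licensing factor cdt1 had 6169, 8779 and 5336 units in lhx1-AS caps, against 3172, 3506 and 1522 in C caps (1.36 ± 0.20), and mcm2, a subunit of the replicative helicase, had 2419, 2235 and 2129 in lhx1-AS caps, against 931, 1194 and 707 in C caps (1.29 ± 0.18). Mcm4 (1.51 ± 0.20), mcm5 (1.1 ± 0.21), the licensing ATPase cdc6 (1.71 ± 0.29), the ribonucleotide reductase subunit rrm2.2 (1.86 ± 0.25), cyclin ccna2 (1.90 ± 0.29) and the phosphatase cdc25a (1.08 ± 0.17) rose as well. In these 8 genes the adjusted p lay between 4e-04 and 0.00349 (limma).

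The sliding clamp pcna, a member of both the replication list and the p53 list, had 3534, 6359 and 5710 units in lhx1-AS caps, against 2039, 1159 and 1011 in C caps (1.92 ± 0.29, limma, adjusted p = 0.000845). Of 23 genes of p53 and DNA damage, 8 were higher (34.8%, against 9.22% of all genes) and 3 lower (13.0%, against 10.6%). Without the lhx1-AS array of experiment I, 5 were higher and 2 lower, and without the experiment as a block 4 and 1. Sesn1, a stress-induced p53 target, averaged 364 ± 132 units in lhx1-AS caps and 63.8 ± 8.45 in C caps as mean and SD of 3 arrays, with no overlap (2.46 ± 0.33, limma, adjusted p = 0.000484). The p53-inducible reductase subunit rrm2b had 2170, 2136 and 1836 in lhx1-AS caps, against 1221, 966 and 976 in C caps (0.96 ± 0.18), and sesn2 rose by 1.21 ± 0.26. Each kept its rise without every array in turn. Mdm4, an inhibitor of p53, fell to 49.7, 13.0 and 35.3 units in lhx1-AS caps, against 211, 150 and 238 in C caps (-2.79 ± 0.45). The cyclin gene ccng2 fell and kept its call, and bax, a pro-apoptotic effector, fell without doing so.

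Cell death genes were divided. Of 21 measured, 2 were higher (9.52%) and 4 lower (19.0%, against 10.6% of all genes), with a median of -0.30, and 1 and 3 without the lhx1-AS array of experiment I. The initiator caspase casp2 rose to 2985, 3405 and 3983 units in lhx1-AS caps, against 1279, 2450 and 1789 in C caps (0.95 ± 0.21), whereas pdcd4, an inhibitor of translation, fell to 227, 161 and 131 units, against 471, 1046 and 397 in C caps (-1.78 ± 0.29). Of 48 genes of heat shock, the unfolded protein response and oxidative stress, 1 was higher and 2 lower, which is fewer than the shares of 9.22% and 10.6% for all genes, and none of the 3 kept its call without each array (0 higher and 3 lower without the lhx1-AS array of experiment I). Of 29 innate immunity and interferon genes 2 were higher and 1 lower, again with 0 kept, and without that array 0 were higher and 3 lower. Over all probe sets 37.6% of higher and 42.2% of lower calls were kept, and 3 calls in a list are too few to compare with this.

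Genes of RNA degradation and oligonucleotide metabolism formed another list. Of 26 measured, 5 were higher (19.2%, against 9.22% of all genes) and 0 lower, against 3 and 0 without the lhx1-AS array of experiment I. The 5 were the exosome subunits exosc3, exosc4 and exosc7, and rnaseh1 and rnaseh2a, which cut RNA paired with DNA. Exosc4 had 574, 1088 and 1426 units in lhx1-AS caps, against 343, 600 and 643 in C caps (0.92 ± 0.17, limma, adjusted p = 0.00323) and kept its call without each array, although the groups overlapped. Rnaseh1 had 170, 293 and 273 units in lhx1-AS caps, against 113, 91.4 and 159 in C caps (1.01 ± 0.32), and its call was lost without any one of 5 of the 6 arrays, with an adjusted p of up to 0.202. Without the experiment as a block, 0 of the 26 were called.

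The signalling lists had between 4.76% and 13.3% of their genes higher and between 3.85% and 23.5% lower, against 9.22% and 10.6% of all genes. In the retinoic acid pathway 1 of 17 genes was higher, rdh10, and 4 were lower (23.5%; 2 and 3 without the lhx1-AS array of experiment I): dhrs3, which turns retinaldehyde back to retinol, the retinoid-responsive gene rarres1, the receptor rxra and the coactivator ncoa3. Dhrs3 had 147, 145 and 164 units in lhx1-AS caps, against 262.2, 397 and 242.5 in C caps (-0.95 ± 0.20, limma, adjusted p = 0.00624), with no overlap, and kept its call; rarres1 lost its call without array III of lhx1-AS or II or III of C (adjusted p of up to 0.0715, limma) and rxra without array II of lhx1-AS or I or II of C (up to 0.0699). In the BMP pathway 2 of 39 were higher (5.13%) and 5 lower (12.8%). The higher ones were id3 and the dim ventx2.2, which kept their calls in 3 and 1 of the 6 fits that left out 1 array. Id3 had 1342, 1426 and 1587 units in lhx1-AS caps, against 872.5, 1156 and 709.6 in C caps. Ventx2.1 was read in this list by its uncalled ventx2.1.S probe set, while ventx2.1.L rose (2.38 ± 0.30). Among the lower were the effector smad9 and the protease tll1, which cleaves the BMP antagonist chordin (-1.50 ± 0.33). Smad9 had 723, 325 and 354 units in lhx1-AS caps, against 1807, 1100 and 1658 in C caps (-1.77 ± 0.40). Smad9 lost its call without array III of lhx1-AS (limma, adjusted p = 0.0546). The balance of the BMP list depended on the scaling. At a common median 5 were higher and 3 lower, after quantile normalization 3 and 3, and without the experiment as a block 0 and 2.

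In the nodal and activin pathway 4 of 30 were higher, led by tdgf1.3 (13.3%), and 2 lower (6.67%); the activin receptor acvr2b had 642, 467 and 467 units in lhx1-AS caps, against 1064, 1554 and 1006 in C caps (-1.19 ± 0.20, limma, adjusted p = 0.00197). Among the 50 Wnt genes, 4 were higher and 2 lower, and 4 and 3 without the lhx1-AS array of experiment I. The receptor fzd7 had 294, 915 and 759 units in lhx1-AS caps, against 63.8, 347 and 51.6 in C caps (2.49 ± 0.48), and the repressor tcf7l1 had 2587, 2093 and 2432 in lhx1-AS caps, against 1385, 1019 and 738 in C caps (1.22 ± 0.25). Tcf7l1 groups were apart, whereas the fzd7 signals overlapped, as C of experiment II exceeded lhx1-AS of experiment I. In the FGF and MAP kinase list 2 of 26 were higher and 1 lower, the ETS factor ets1 (-1.20 ± 0.23); without the lhx1-AS array of experiment I, 4 were higher and 2 lower. In the Notch list 1 of 21 was higher (5 at a common median) and 2 lower: adam10, a protease that cleaves Notch, at 1261, 1326 and 1062 units in lhx1-AS caps against 4343, 3053 and 3257 in C caps (-1.53 ± 0.31), and the ubiquitin ligase neurl1, averaging 80.4 ± 77.8 units in lhx1-AS caps against 524 ± 79.4 in C caps as mean and SD of 3 arrays (-3.44 ± 0.66).

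Calls in the ribosomal list were mostly higher, and their number depended on the scaling. Of 59 ribosomal and other housekeeping genes, 15 were higher (25.4%) and 1 lower (1.69%) on the deposited scale. The shares of all genes were 9.22% and 10.6%. At a common median 36 were higher and 0 lower, and after quantile normalization 5 and 1. Without the lhx1-AS array of experiment I, 6 were higher and 0 lower. Rps9, a protein of the small ribosomal subunit, had 10930, 11920 and 13790 units in lhx1-AS caps, against 5297, 8545 and 7308 in C caps (0.81 ± 0.16). Of 52 genes of mitochondrial respiration 10 were higher (19.2%) and 3 lower (5.77%). These counts were 8 and 5 without the lhx1-AS array of experiment I, and 19 and 2 at a common median. The complex I subunit ndufv1 had 964, 627 and 817 units in lhx1-AS caps, against 1959, 2190 and 2207 in C caps (-1.42 ± 0.21), and the outer membrane channel vdac1 had 514, 512 and 518 in lhx1-AS caps, against 1987, 1620 and 1137 in C caps (-1.58 ± 0.29). In splicing and transcription 10 of 60 were higher (16.7%) and 5 lower (8.33%, under the share of all genes), and 19 and 3 at a common median. There, 2 subunits of RNA polymerase II went opposite ways, polr2k by 1.55 ± 0.23 and polr2b by -1.91 ± 0.28. Of only 7 measured ion transporter genes of the pronephric tubule 3 were lower (42.9%, against 10.6% of all genes) and 0 higher. The carnitine carrier slc22a5 kept its call (-1.27 ± 0.28).

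**Figure D3:**
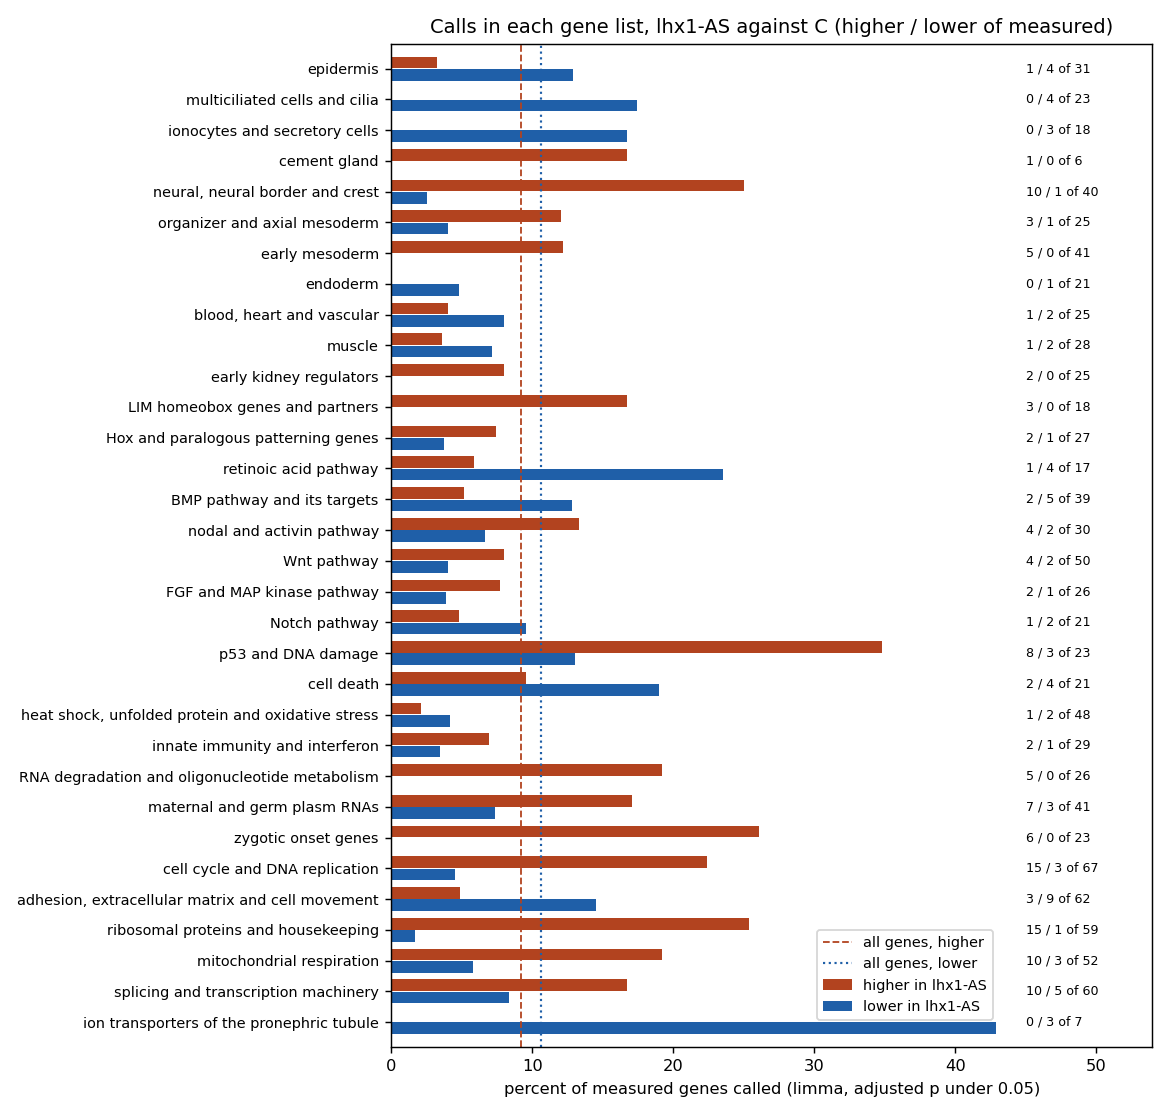
Percent of the measured genes of each of 32 lists called higher (red) or lower (blue) in lhx1-AS than in C caps, each gene read by its brightest probe set, with the counts at right. The dashed and dotted lines mark the shares of all 6505 named genes, 9.22% higher and 10.6% lower. The neural, zygotic onset, p53, cell cycle and ribosomal lists stand above the red line by the most. The lines are not matched for signal, and among probe sets of 466 units or more 18.1% were called higher.

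The frog genome holds 2 copies, L and S, of many genes, and for 1017 genes the array had a probe set of each. Either copy was called in 331 of them and both in 75. Over all 6505 named genes, each read by 1 probe set, 19.8% were called. That share is not a like one, since either of 2 probe sets could be called here. In 69 of these 75 the copies moved the same way, 36 up and 33 down, and in 6 they moved in opposite directions (atg16l1, birc2, fam50a, gata6, marcksl1 and zdhhc3). Whether a probe set of 1 copy also reads RNA of the other copy was not tested.

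The effect of the oligonucleotide in AcRA caps, taken from the other 6 arrays, which came from the same 3 experiments and were fitted in the same model, was set beside the effect in untreated caps. There, 1082 probe sets (6.98%) were higher and 1851 (11.9%) lower, 18.9% together, in lhx1-AS/AcRA than in AcRA caps. The probe sets called higher in both settings numbered 525, or 45.7% of those higher in untreated caps and 48.5% of those higher in AcRA caps. Called lower in both were 959, or 59.6% of the untreated and 51.8% of the AcRA calls. Opposite calls were 9 for probe sets higher and 13 for those lower in untreated caps. Of the 30 genes with the largest changes, 9 of 15 rises and 13 of 15 falls were called the same way in AcRA caps. Vwa8 (-6.71 ± 0.67 in AcRA caps), tjap1 (-5.53), b3galnt2 (-4.46) and cetn1 (4.01) changed there too, and the difference of effects was not called for any of the 4 (limma, adjusted p from 0.821 for vwa8 to 0.978 for cetn1).

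The difference of effects itself, AcRA minus untreated caps, was called for 239 probe sets (1.54%), 104 positive (0.671%) and 135 negative (0.871%). Fn1 was among them. Its brightest probe set had 9629, 11290 and 8013 units in lhx1-AS/AcRA caps and 10010, 6691 and 11720 in AcRA caps, and its effect there was 0.05, against -3.62 in untreated caps (difference 3.67, limma, adjusted p = 7.07e-05). Elovl2 was low in both induced groups, with 47.5, 58.3 and 39.1 units in lhx1-AS/AcRA caps and 54.8, 15.3 and 85.3 in AcRA caps, and its effect was 0.20 there, against -3.27 in untreated caps (difference 3.47, limma, adjusted p = 0.0186). Hes5.3, dlx6 and ventx2.1, which rose in untreated caps, had uncalled effects of -0.23, -0.51 and -0.70 in AcRA caps (adjusted p of the difference between 0.0043 and 0.0144, limma). Krt19.L was lower in untreated caps and higher in AcRA caps (2.73).

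Other epidermal genes were lower mainly in AcRA caps. Krt12.4 fell by 2.51 on the log2 scale in AcRA caps and had an effect of -0.13 in untreated caps (difference -2.38, limma, adjusted p = 0.0176), and itln1 fell by 5.67 against its uncalled -1.18 (difference -4.49, limma, adjusted p = 0.00193). Of the 31 epidermal genes 18 were lower in AcRA caps, against 4 in untreated caps, and the difference was called for 12. Sparc.L fell to 310, 495 and 151 units in lhx1-AS/AcRA caps, against 4209, 4398 and 4939 in AcRA caps, and its difference of effects was not called (limma, adjusted p = 0.318).

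**Figure D4:**
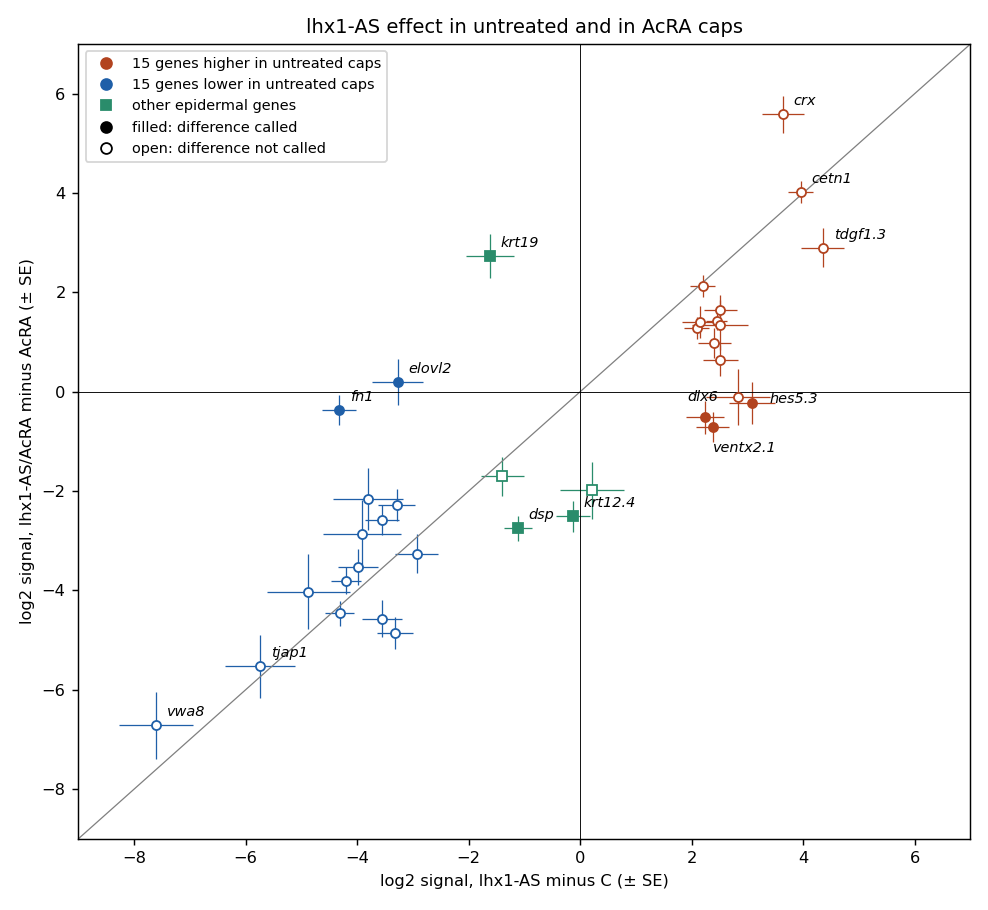
Effect of lhx1-AS in AcRA caps (y axis, lhx1-AS/AcRA minus AcRA) against its effect in untreated caps (x axis, lhx1-AS minus C), in log2 units with SE bars (fn1 by the probe set with the largest fall after adding 64), for the 15 genes that rose most, the 15 that fell most and other epidermal genes. Filled symbols mark a difference of effects called by limma; fn1, elovl2, hes5.3, dlx6 and ventx2.1 lie between -0.70 and 0.20 in AcRA caps, krt12.4 at -0.13 in untreated caps (0.11 at a common median), and krt19 falls on opposite sides of 0.

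**Figure D5:**
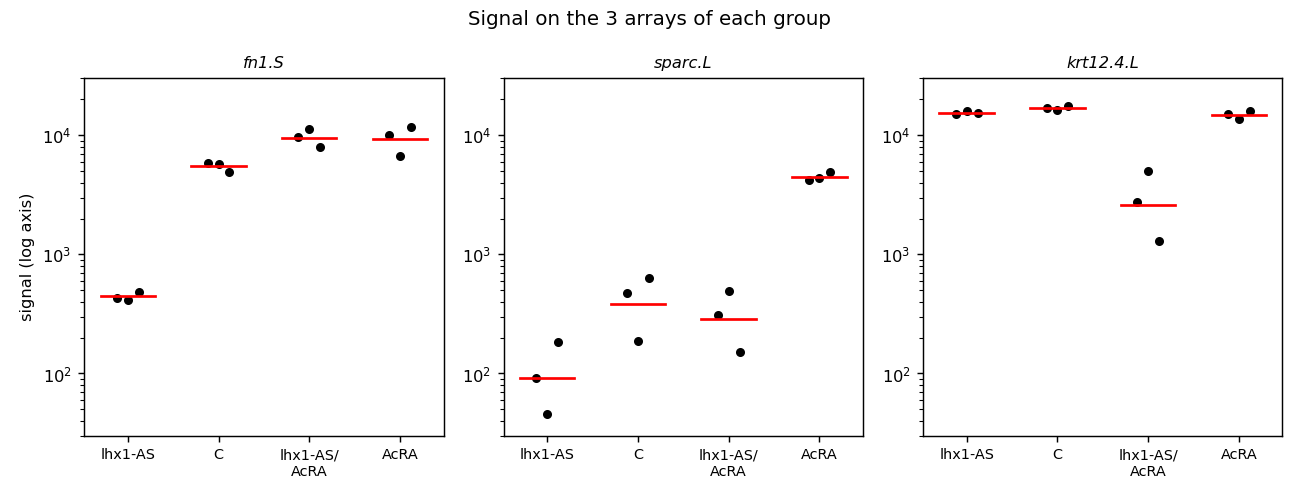
Signal (log axis) of fn1, sparc and krt12.4 on the 3 arrays of each of the 4 groups, from left lhx1-AS, C, lhx1-AS/AcRA and AcRA, with red bars for geometric means. The fn1 points of lhx1-AS caps, 418 to 485, lie apart from all other groups, while the krt12.4 points are low in lhx1-AS/AcRA caps alone.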

How the data were processed

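RNA of pooled Xenopus laevis animal caps was amplified and hybridized to the first Affymetrix array of this species. Per the labels, 100 ng of total RNA entered the amplification. The authors deposited 1 linear signal intensity for each of 15611 probe sets and array, scaled so that the trimmed mean (outer 2% removed at each end) was near 500.1 on all arrays; detection calls were not used here. Probe sets were named from the platform annotation through RefSeq gene symbols: 9304 had 1 symbol, 195 had several and 6112 had none. Tests covered every probe set except 108 controls.

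Signals were set to at least 1 (555 of all values, 0.298%, were under 1) and transformed to log2. A linear model over all 12 arrays with 4 group means and the experiment as a block was fitted in limma 3.58.1 (R 4.3.3) with a variance trend, and p-values were adjusted by Benjamini-Hochberg over all probe sets at 0.05. The block rests on the experiment named in each title. Deviations from group means correlated between 0.152 and 0.269 for the 18 pairs of arrays of the same experiment and between -0.19 and -0.00368 for the 36 pairs of different experiments. With the block, p-values rest on the spread left after the group and experiment terms, pooled over all 12 arrays. The labels do not say whether experiments used separate clutches, so it is not known whether this spread covers that between clutches. The script was tested on simulated data with 200 changed probe sets. Genes were read by their brightest probe set in the 32 lists. Named were lhx1, the 15 genes each way with the largest change with 64 added (called, same direction in 3 of 3 experiments, at least 200 units) and up to 6 genes a list, with others named where few were called. Members and lists were chosen with earlier results of these data known. The alternatives tried were 18 settings.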

Additional observations from a re-analysis of the deposited data

Results flagged for a closer look

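The effect of lhx1-AS in AcRA caps differed from that in untreated caps, by a limma test of the difference itself, for 239 probe sets. Among genes named above, the effect was more positive in AcRA caps for all 4 probe sets of fn1 (3.49, 3.67, 3.78 and 3.95 log2 units), elovl2 (3.47), krt19.L (4.35) and krt19.S (2.19), atp1b1 (1.47), tll1 (2.32), gata6.L (1.70), marcksl1.L (2.47) and otx2 (3.98), and for zic2, a zinc finger gene of neural tissue (3.76). It was more negative for dlx6 (-2.75), hes5.3 (-3.31), ventx2.1.L (-3.08), ventx2.2.L (-2.44), hoxc6.S (-4.54) and tekt2 (-3.24). Of epidermal genes it was more negative for dsp.L (-1.63), krt12.4.L and krt12.4.S (-2.38 and -4.33), krt70.L and 1 probe set of krt70.S (-4.93 and -3.95), itln1 (-4.49), dlx3.L and dlx3.S (-3.25 and -3.47) and grhl1 (-3.22), and of small secretory cell genes for 2 probe sets of otogl2 (-4.50 and -5.48). No account of these differences was tested.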

How the results depend on the processing

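Counts of probe sets moved with the settings more than directions did. Without the experiment (replicate) block, 391 were higher and 693 lower, and the difference of effects was called for 68; without a variance trend these were 597, 1004 and 11. With 64 or 16 added, the difference was called for 431 and 397. At a common median 2104 were higher, and in a limma fit of the 6 untreated arrays alone 746. The methods' t-test gave 0 higher and 0 lower after adjustment, and 1149 and 1466 at an unadjusted p under 0.05, against 2169 and 2686 for limma. Leaving out single arrays or experiments gave 302 to 1045 higher, 608 to 1521 lower and 39 to 226 differences of effects, the lowest counts of higher and lower without experiment III. The lhx1 difference lay between -1.69 and 2.29, negative at -1.28 without array II of lhx1-AS, -0.77 without array II of C, -0.13 without array III of C and -1.69 without experiment II. Uncalled genes turned as well: krt12.4.L to 0.11 at a common median (-0.30 to 0.050 without single arrays), krt70.S to -0.13 after quantile normalization (-0.14 to 0.60) ldb1.L to -0.21 after it (-0.093 to 0.29), and the uncalled probe set of sytl1 to 0.13 without array III of C (-1.62 to 0.13). No other gene with an untreated difference given above changed direction; the causes were not tested. With 3 arrays a group, and with lhx1 near the floor in untreated caps, a difference in lhx1 there was not resolved.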
